A study of Mus musculus with 9 samples.

Results

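Connexins and pannexins are the membrane proteins through which neighbouring cells pass small molecules to each other or release them to the outside. The group described here is 6 genes, Gja1, Gjb1, Gjb2, Gjb5, Gjc1 and Panx1, chosen by symbol from the 55276 gene rows of a count table of cholangiocarcinoma cells. All 9 RNA-seq libraries of the table were used. They came from PPTR cells, a mouse intrahepatic cholangiocarcinoma (iCCA) line from liver tumors with Prom1CreERT2, Ptenflx/flx, Tp53flx/flx and Rosa-ZsGreen alleles, which the control cells carry as well. There were 3 libraries of control cells, labelled WT and called Vcam1ctrl here, and 3 each of Vcam1KO1 and Vcam1KO2, each grown up from a single cell after Cas9 was directed to exon 2 of Vcam1, the gene of a cell adhesion receptor. Vcam1KO below means both clones combined. Each knockout genotype is therefore 1 clone, grown in the same serum-containing medium as the control, and what a clone carried from its founding cell cannot be told apart from the loss of Vcam1. The libraries came from different passages, so p values for a single clone measure the spread between libraries of a culture and not between independently made clones. In the combined comparison the 6 libraries of the 2 clones were treated as replicates. The difference between the clones then counts as spread within the group, and the p value rests on 2 clones.

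Connexin subunits assemble into a hemichannel, and hemichannels of adjoining cells dock into a gap junction that passes ions, second messengers and small metabolites. In liver, hepatocytes are coupled mainly by the products of Gjb1 (Cx32) and Gjb2 (Cx26), whereas Gja1 (Cx43) is the connexin of many other cell types, stellate cells and fibroblasts among them. Gjb5 (Cx31.1) is known from stratified epithelia and trophoblast, and Gjc1 (Cx45) from cardiac conduction tissue, smooth muscle and the early embryo. Panx1 forms a plasma membrane channel that releases ATP and is opened by caspase cleavage in apoptotic cells.

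No upstream sequence was found for Gjc1, which rose in both clones. The other 5 genes, of which 4 fell and Gja1 rose in both clones, are shown with their upstream sequences. They are the 250 bases before the RefSeq transcription start on GRCm38.p6, read 5′ to 3′ on the strand of the gene, and capitals mark matches to the motifs named after them. RefSeq gives 4 start sites for Gjb1, and the most upstream is shown.
Gja1, chr10:56377050-56377299, plus strand: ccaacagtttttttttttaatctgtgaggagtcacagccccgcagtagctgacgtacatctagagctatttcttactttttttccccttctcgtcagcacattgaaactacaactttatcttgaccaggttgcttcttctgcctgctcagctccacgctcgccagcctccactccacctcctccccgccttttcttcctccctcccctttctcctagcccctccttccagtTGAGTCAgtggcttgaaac
Gjb1, chrX:101376126-101376375, plus strand: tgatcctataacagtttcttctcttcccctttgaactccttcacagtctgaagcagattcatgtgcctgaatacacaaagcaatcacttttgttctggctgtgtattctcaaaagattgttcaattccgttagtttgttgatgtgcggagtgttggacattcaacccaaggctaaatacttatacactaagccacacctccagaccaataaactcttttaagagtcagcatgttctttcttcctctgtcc
Gjb2, chr14:57104703-57104952, minus strand: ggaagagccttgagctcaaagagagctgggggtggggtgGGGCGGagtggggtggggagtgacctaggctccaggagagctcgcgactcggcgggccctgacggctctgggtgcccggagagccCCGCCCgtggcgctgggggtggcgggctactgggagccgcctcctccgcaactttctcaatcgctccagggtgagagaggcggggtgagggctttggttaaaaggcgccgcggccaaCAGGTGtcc
Gjb5, chr4:127358165-127358414, minus strand: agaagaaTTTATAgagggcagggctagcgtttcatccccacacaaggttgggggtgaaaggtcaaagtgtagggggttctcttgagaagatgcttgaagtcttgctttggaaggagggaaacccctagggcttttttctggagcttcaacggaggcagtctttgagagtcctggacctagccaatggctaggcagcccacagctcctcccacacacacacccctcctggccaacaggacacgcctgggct
Panx1, chr9:15045479-15045728, minus strand: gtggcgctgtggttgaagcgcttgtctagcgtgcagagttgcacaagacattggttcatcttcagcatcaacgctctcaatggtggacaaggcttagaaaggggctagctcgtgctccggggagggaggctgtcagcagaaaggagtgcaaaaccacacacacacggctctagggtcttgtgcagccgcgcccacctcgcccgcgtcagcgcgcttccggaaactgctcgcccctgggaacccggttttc
Both strands were searched for 7 motifs, and no matches overlapped in the windows shown. The Gja1 window held an AP-1 motif (TGANTCA) beginning 19 bases before the start, a motif found in 6.75% of 32851 windows of the same length. The Gjb2 window held an E-box of the kind bound by EMT repressors (CAGGTG, 17.2% of windows) 9 bases before the start and a GC box (GGGCGG, 32.7%) 211 and 126 bases before it. A TATA motif (TATAAA, 12.4%) stood 243 bases before the Gjb5 start on the other strand. The Panx1 window and the Gjb1 window shown held none of the 7 motifs, which also included GRHL (AACCNGTT, 1.79%), the HNF1 motif (0.00913%) and TEAD (GGAATG, 12.6%). At Gjb1, the window of the fourth start site held the E-box, the TATA motif and 3 GC boxes, and that of the second a TEAD motif. These are matches of letters, and no factor binding was measured.

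The 6 genes lie on different chromosomes. On GRCm38 with GENCODE vM21, Gja1 spans chr10:56377330-56402513 on the plus strand, Gjb1 chrX:101376378-101385629 on the plus strand, Gjb2 chr14:57098600-57104702 on the minus strand, Gjb5 chr4:127354809-127358181 on the minus strand, Gjc1 chr11:102799579-102819700 on the minus strand and Panx1 chr9:15002128-15045478 on the minus strand. Of the distinct 31-base words in their transcripts, 0% of those of Gjb1, Gjb2 and Gjb5, 0.100% of Panx1, 0.656% of Gjc1 and 1.25% of Gja1 also occurred in another gene.

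The libraries held 53415907 to 125223073 estimated counts. Vcam1 stood at 221 to 329 CPM (counts scaled to library size with TMM factors) in Vcam1ctrl cells and at 83.0 to 128 CPM in the 6 clone libraries. These are RNA counts over the whole gene. The paper reports that both clones lost Vcam1 by qRT-PCR and by flow cytometry, and why counts remained was not tested. The markers of biliary cells gave a mixed picture for a cholangiocarcinoma line, since Krt19, Krt7 and Epcam had means of 2290, 107 and 22.0 CPM in Vcam1ctrl cells and of 0.354 CPM or less in Vcam1KO1 and 0.597 CPM or less in Vcam1KO2 cells. Replicate 3 of Vcam1KO1 differed from its 2 partners by a median of 0.348 and 0.363 on the log2 scale over genes, while these differed from each other by 0.150, and the replicates of the other groups by 0.136 to 0.372.

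Of the 6 genes, 2 rose and 4 fell in Vcam1KO cells (edgeR quasi-likelihood fit, p adjusted over 17672 genes by the Benjamini-Hochberg method, threshold 0.05), beside 21.7% of all genes tested that were called higher and 21.2% called lower. In Vcam1KO1 cells alone 2 rose and 4 fell (29.9% and 30.0% of all genes), and the same held in Vcam1KO2 cells (25.3% and 26.1%). The median log2 fold change of the 6 genes was -3.64 in Vcam1KO1 and -2.05 in Vcam1KO2 cells, beside 0.02 and 0.00 over all genes tested. Because the 6 genes were chosen with earlier results of these data known, these shares and medians do not test the group. The same limit holds for the gene lists below. The comparisons share the 3 control libraries. Overlap between groups is given gene by gene below, but the share of all genes tested without overlap was not counted. With 59.9% of all genes called in Vcam1KO1 and 51.4% in Vcam1KO2 cells, a lack of overlap does not set these genes apart. Without replicate 3 of Vcam1KO1 the same 2 genes rose and the same 4 fell in each clone. The filter kept all 6, but Gjb1 and Gjb2 reached its cutoff of 0.152 CPM in every library of Vcam1ctrl cells only, and Gjc1 in no Vcam1ctrl library, so a difference in these is partly built into passing it. In bulk RNA, fewer cells that express a gene and less RNA per cell cannot be told apart.

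**Figure D1:**
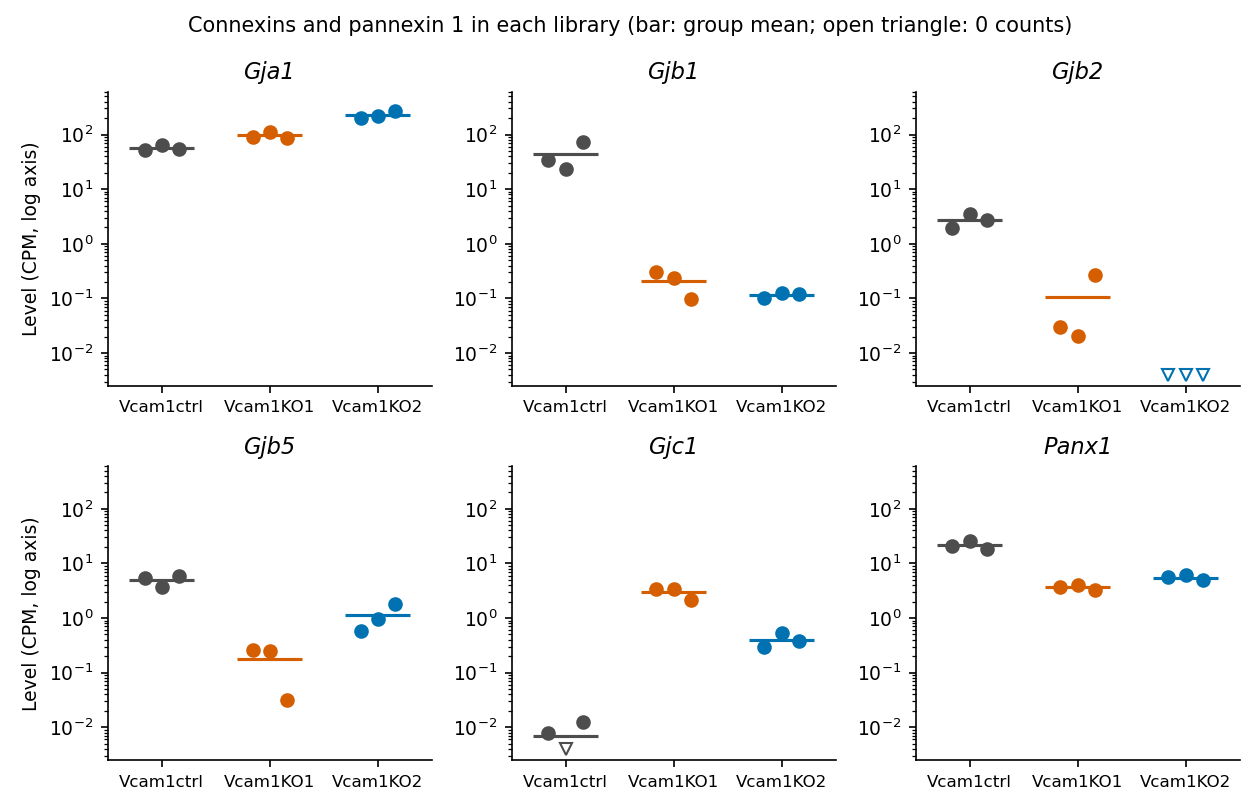
Level of each gene in each library, in CPM on a log axis, for Vcam1ctrl, Vcam1KO1 and Vcam1KO2 cells, with a bar at the group mean and an open triangle at the foot of the axis for 0 counts. Gja1 and Gjc1 sit higher in the clones, and Gjb1, Gjb2, Gjb5 and Panx1 lower, with no overlap between clone and control libraries. The share of all genes tested without such overlap was not counted.

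Gja1, the widely expressed Cx43 gene, rose in both clones and more so in Vcam1KO2. Its level was 52.9, 64.7 and 54.4 CPM in Vcam1ctrl cells, 89.4, 111 and 88.0 CPM in Vcam1KO1 cells and 204, 214 and 274 CPM in Vcam1KO2 cells. None of the 3 groups overlapped. Means were 57.3 ± 6.43 CPM (SD, n = 3) in Vcam1ctrl, 96.3 ± 13.1 CPM (SD, n = 3) in Vcam1KO1 and 231 ± 37.8 CPM (SD, n = 3) in Vcam1KO2 cells. The log2 fold change was 0.75 in Vcam1KO1 cells (standard error 0.15, edgeR adjusted p = 0.0022) and 2.01 in Vcam1KO2 cells (standard error 0.16, edgeR adjusted p = 7.1e-06), that is, 1.68-fold and 4.03-fold. With the clones combined it was 1.51 (standard error 0.40, edgeR adjusted p = 0.014). That combined call was lost when any of the 3 control libraries was left out, at 1.45, 1.57 and 1.47 with edgeR adjusted p of 0.061, 0.051 and 0.056 for replicates 1, 2 and 3, whereas the call in each clone was kept under all 17 alternatives tried.

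Gjb1, which encodes the main hepatocyte connexin Cx32, fell furthest of the genes that kept counts in every library. It stood at 34.2, 22.9 and 73.7 CPM in Vcam1ctrl cells, at 0.299, 0.240 and 0.0958 CPM in Vcam1KO1 cells and at 0.103, 0.127 and 0.118 CPM in Vcam1KO2 cells. These levels correspond to 1243 to 5830 counts per control library and 6 to 23 counts per clone library. The control libraries spread widely, and every clone library lay below all of them.
The log2 fold change was -7.65 in Vcam1KO1 cells (standard error 0.56, edgeR adjusted p = 3.4e-06) and -8.53 in Vcam1KO2 cells (standard error 0.60, edgeR adjusted p = 3.4e-06), or 202-fold and 369-fold lower. Control replicate 3 carried part of this size, and without it the values were -7.06 and -7.92. The clones were not distinguished from each other (log2 difference of Vcam1KO1 from Vcam1KO2 0.87, 95% interval -0.56 to 2.30, edgeR adjusted p = 0.31).

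Gjb2, the gene of Cx26 and a partner of Cx32 in hepatocyte gap junctions, was low in control cells and close to absent in the clones. Counts were 244, 188 and 219 in the Vcam1ctrl libraries, 2, 2 and 17 in the Vcam1KO1 libraries and 0, 0 and 0 in the Vcam1KO2 libraries. The clones did not overlap the controls, and replicate 3 of Vcam1KO1 held 17 of that clone's 21 counts. In CPM the control mean was 2.73 ± 0.764 (SD, n = 3) and the Vcam1KO1 mean 0.107 ± 0.142 (SD, n = 3).
In Vcam1KO1 cells the log2 fold change was -4.73 (standard error 0.84, edgeR adjusted p = 0.0019), which moved to -6.68 without replicate 3 of that clone. Against a limit of 3 counts over the group, or 0.0153 CPM, the level in Vcam1KO2 cells was at least 165-fold lower than in Vcam1ctrl cells (edgeR adjusted p = 0.00055). Between the clones, Vcam1KO1 was at least 6.11-fold higher by the same limit, but at least 1.61-fold higher without its replicate 3.

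Gjb5, an epithelial connexin gene, fell in both clones and more in Vcam1KO1. It was at 5.30, 3.67 and 5.81 CPM in Vcam1ctrl cells, at 0.255, 0.250 and 0.0319 CPM in Vcam1KO1 cells and at 0.583, 0.976 and 1.79 CPM in Vcam1KO2 cells. The groups did not overlap, and the order of levels was Vcam1ctrl, Vcam1KO2, Vcam1KO1. The log2 fold change was -4.74 in Vcam1KO1 (standard error 0.64, edgeR adjusted p = 0.00017) and -2.14 in Vcam1KO2 cells (standard error 0.55, edgeR adjusted p = 0.0093), or 26.6-fold and 4.40-fold lower. The combined value of -2.93 (standard error 0.83, edgeR adjusted p = 0.019) did not pass without control replicate 1 (-2.87, edgeR adjusted p = 0.054) or control replicate 3 (-2.79, edgeR adjusted p = 0.056), and moved to -3.58 without replicate 3 of Vcam1KO2 and to -3.72 with limma-voom.

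Gjc1, the Cx45 gene, was the only one of the 6 to appear from near absence. Control libraries held 1, 0 and 1 counts, Vcam1KO1 libraries 223, 319 and 136 counts and Vcam1KO2 libraries 17, 37 and 26 counts. All clone libraries lay above all control libraries, and all Vcam1KO1 libraries above all Vcam1KO2 libraries. Mean levels in the clones were 2.95 ± 0.671 CPM (SD, n = 3) and 0.400 ± 0.117 CPM (SD, n = 3).
Because the controls held 2 counts in all, the fold is given as a ratio of counts summed over a group and scaled to its summed library sizes, with an exact 95% interval that covers counting error only. It was 389 (107 to 3220) for Vcam1KO1 (edgeR adjusted p = 1.6e-06) and 52.6 (14.1 to 442) for Vcam1KO2 cells (edgeR adjusted p = 3.7e-05).

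Panx1, which encodes the ATP release channel, fell in both clones. Levels were 20.9, 25.3 and 18.4 CPM in Vcam1ctrl cells, 3.73, 3.97 and 3.30 CPM in Vcam1KO1 cells and 5.53, 6.14 and 4.87 CPM in Vcam1KO2 cells. The spread within each group was small and no groups overlapped. The log2 fold change was -2.55 in Vcam1KO1 (standard error 0.18, edgeR adjusted p = 2.7e-06) and -1.96 in Vcam1KO2 cells (standard error 0.18, edgeR adjusted p = 1.6e-05), or 5.86-fold and 3.90-fold lower. Of the other pannexins, Panx3 had 0 counts in every library and Panx2 at most 9.

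**Figure D2:**
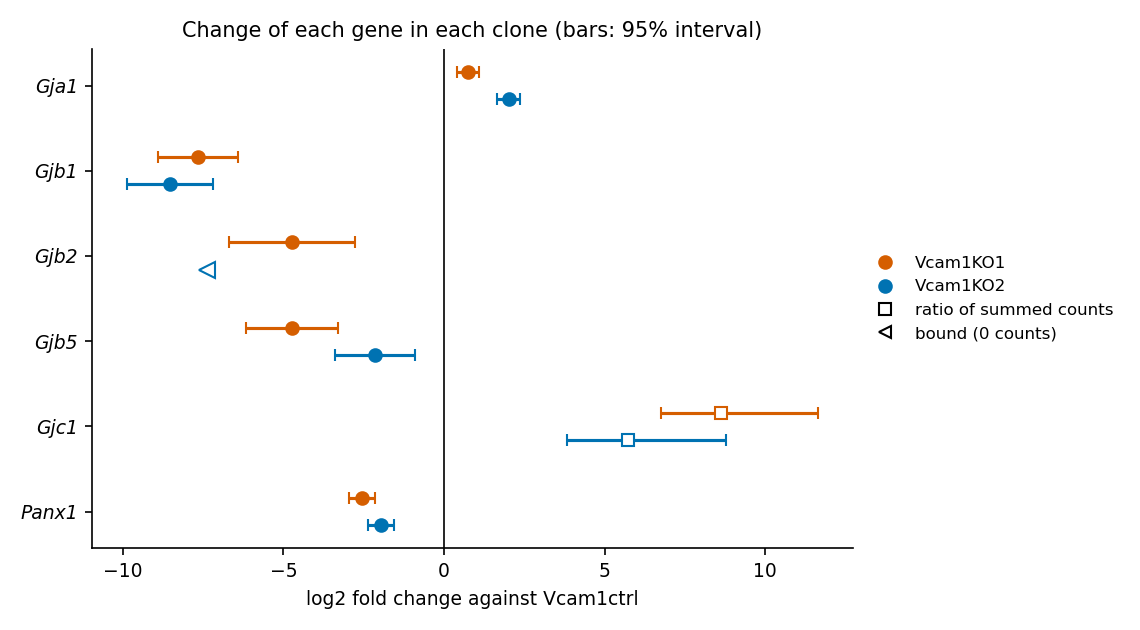
log2 fold change of each gene in Vcam1KO1 and Vcam1KO2 cells against the same Vcam1ctrl libraries, with 95% intervals. Filled circles are edgeR estimates, open squares ratios of summed counts with counting intervals for Gjc1, and the open triangle the bound for Gjb2 in Vcam1KO2 cells, which had 0 counts.

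The clones were also compared with each other in the fit with 3 groups. Of the 6 genes, 2 were higher in Vcam1KO1 than in Vcam1KO2 (Gjb2 and Gjc1) and 3 lower (Gja1, Gjb5 and Panx1), beside 20.2% and 18.5% of all genes tested. The log2 difference of Vcam1KO1 from Vcam1KO2 was -1.26 for Gja1 (standard error 0.15, edgeR adjusted p = 0.00031) and -2.60 for Gjb5 (standard error 0.61, edgeR adjusted p = 0.0088). For Gjc1 it was 2.87 (standard error 0.35, edgeR adjusted p = 0.00032).
The remaining calls were less secure. Panx1 differed by -0.59 (standard error 0.17, edgeR adjusted p = 0.024), which became 0.056 with limma-voom, 0.059 without replicate 3 of Vcam1KO1 and 0.089 without replicate 2 of Vcam1KO2. The Gjb2 call (edgeR adjusted p = 0.044) was lost when any control or Vcam1KO2 library was left out, with edgeR adjusted p of 0.060 to 0.091.

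Levels of different genes were set side by side per kb of the longest coding transcript. In Vcam1ctrl cells Gjb1 came first at 27.5 ± 16.8 CPM per kb (SD, n = 3), followed by Gja1 at 18.0 ± 2.02, Panx1 at 3.75 ± 0.613, Gjb5 at 2.86 ± 0.647, Gjb2 at 1.13 ± 0.317 and Gjc1 at 0.00297 ± 0.00276. The ranges of Gjb1 and Gja1 overlapped, as did those of Panx1 and Gjb5. In Vcam1KO1 cells the order was Gja1 at 30.3 ± 4.13, Gjc1 at 1.27 ± 0.290 and Panx1 at 0.640 ± 0.0584 CPM per kb (SD, n = 3), with Gjb1, Gjb5 and Gjb2 at means of 0.134, 0.104 and 0.0446 and overlapping ranges. In Vcam1KO2 cells it was Gja1 at 72.5 ± 11.9, Panx1 at 0.962 ± 0.111, Gjb5 at 0.648 ± 0.358, Gjc1 at 0.173 ± 0.0504 and Gjb1 at 0.0733 ± 0.00781 CPM per kb (SD, n = 3), with Gjb2 at 0, and the ranges of Panx1 and Gjb5 overlapped. This order depends on the length used where the combined exons of a gene are longer than its longest coding transcript, as for Gja1 (10257 against 3182 bases) and Gjc1 (5003 against 2314 bases). With combined exon lengths Gja1 had means of 5.59, 9.39 and 22.5 CPM per kb in Vcam1ctrl, Vcam1KO1 and Vcam1KO2 cells, below the range of Gjb1 in Vcam1ctrl cells and still first in both clones. Gjc1 then stood at 0.589 CPM per kb in Vcam1KO1 cells, beside 0.608 for Panx1.

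**Figure D3:**
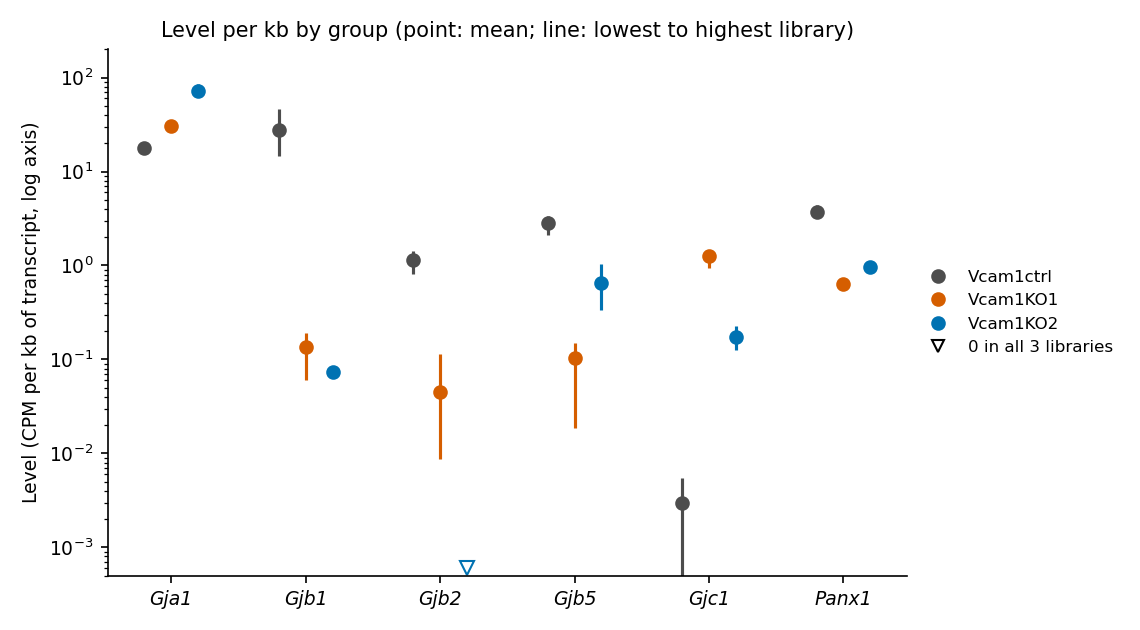
Level of each gene in CPM per kb of its longest coding transcript, on a log axis, in Vcam1ctrl, Vcam1KO1 and Vcam1KO2 cells, with points at the mean and lines from the lowest to the highest of 3 libraries (to the foot of the axis where the lowest is 0) and an open triangle where all 3 are 0. Gjb1 and Gja1 lead in the control at 27.5 and 18.0, and Gja1 leads in both clones at 30.3 and 72.5.

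Of 20 connexin genes in the table, 10 did not pass the filter and reached at most 11 counts in a library. Gja4, the gene of the vascular connexin Cx37, passed it and is given beside the 6. It was low throughout, at 251, 58 and 53 counts (1.25 ± 0.682 CPM, SD, n = 3) in Vcam1ctrl cells, 0.225, 0.188 and 0.0319 CPM in Vcam1KO1 cells and 0.0171, 0.0990 and 0.118 CPM in Vcam1KO2 cells. Control and clone libraries did not overlap, while those of the clones did. The log2 fold change was -3.04 in Vcam1KO1 and -3.94 in Vcam1KO2 cells (edgeR adjusted p = 0.0039 and 0.0017), and the difference between the clones was not called (0.90, 95% interval -0.87 to 2.67, edgeR adjusted p = 0.39).

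For each gene the 3 genes with the most similar pattern were sought by Pearson r of log2 CPM over the 9 libraries, among genes with a mean of at least 5 CPM. These points fall into the 3 groups of libraries, so r describes mainly the group means. Gjb1 was closest to Cyp4b1 and Gabrp (r = 0.997 each) and Akr1c19 (0.996), and Gjb2 to Cidec (0.992), Thbs2 (0.992) and Lgals4 (0.991). Gjc1 was closest to Msrb3 (0.997), Arhgap10 (0.995) and Aoc3 (0.995), and Panx1 to Pde4dip (0.995), Gsto1 (0.995) and the glucose transporter gene Slc2a1 (0.994). Gja1 was closest to Maz (0.989), Lhfpl2 (0.988) and Hdac6 (0.986). For Gjb5 the closest were Nans and the predicted genes Gm13841 and Gm8210 (0.993 each), of which the predicted genes carried the same count in every library and are uncertain, since their reads were not separated.

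Proteins that anchor, deliver or remove gap junctions were read from a list of 23 genes, of which 3 rose and 9 fell in Vcam1KO cells (median log2 fold change -0.23, beside 0.07 over all genes tested). That is 12 of 23 called, beside 43.0% of all genes tested, of which 21.7% were higher and 21.2% lower. E-cadherin, which supports gap junction assembly, is encoded by Cdh1 and fell from 533 to means of 1.34 CPM in Vcam1KO1 and 0.525 CPM in Vcam1KO2 cells (log2 fold change -8.65 and -9.99, edgeR adjusted p = 3.8e-07 and 3.9e-07). Cgn, the gene of the junction protein cingulin, had a log2 fold change of -6.09 with the clones combined, and Ezr, the gene of the membrane linker ezrin, of -2.86 (edgeR adjusted p = 0.00011 and 6.0e-07). The scaffold gene Cask rose by 1.23, the chaperone gene Erp29, known to act in connexin folding, by 0.74 and Dbn1, whose product drebrin binds Cx43, by 0.73 (edgeR adjusted p = 0.00014, 0.0010 and 0.0012).

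Genes of extracellular ATP and adenosine signalling, the pathway that Panx1 feeds, numbered 17 tested of 19. Of these 2 rose and 8 fell in Vcam1KO cells, beside 21.7% and 21.2% of all genes tested, with a median log2 fold change of -0.96 beside 0.07. In Vcam1KO1 cells alone 4 rose and 11 fell (29.9% and 30.0% of all genes), and in Vcam1KO2 cells 3 rose and 9 fell (25.3% and 26.1%). Entpd2, which encodes an ectonucleotidase, had a mean of 54.0 CPM in Vcam1ctrl cells and 0.453 and 0.483 CPM in the clones (-6.95 and -6.81, edgeR adjusted p = 3.6e-05 and 4.7e-05). P2ry2, an ATP and UTP receptor gene, fell from 26.6 to 0.961 and 4.51 CPM (-4.78 and -2.56, edgeR adjusted p = 6.1e-07 and 1.7e-05). The adenosine receptor gene Adora1 fell from 65.1 to 3.05 CPM in Vcam1KO1 and 0.0297 CPM in Vcam1KO2 cells (-4.43 and -10.99, edgeR adjusted p = 0.00014 and 8.2e-06). The nucleoside transporter gene Slc29a1 rose from 176 to 258 and 312 CPM (0.55 and 0.83, edgeR adjusted p = 0.0028 and 0.00031).
Of 5 subunit genes of the volume-regulated anion channel, Lrrc8c was called with the clones combined (0.61, edgeR adjusted p = 0.026), beside 43.0% of all genes. In Vcam1KO1 cells Lrrc8b and Lrrc8c rose (0.44 and 0.59, edgeR adjusted p = 0.028 and 0.030) and Lrrc8e fell by 1.37 (edgeR adjusted p = 0.013), beside 59.9% of all genes called. In Vcam1KO2 cells Lrrc8c rose (0.62, edgeR adjusted p = 0.030), beside 51.4% of all genes called.

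Sums of the fibroblast and stellate, hepatocyte and biliary markers also differed between control and clone libraries. The 8 fibroblast and stellate markers summed to 409 to 795 CPM in Vcam1ctrl, 9330 to 10700 CPM in Vcam1KO1 and 5850 to 7200 CPM in Vcam1KO2 libraries. Of these sums Col1a1 made up means of 99.4, 8530 and 4730 CPM. With the clones combined 5 of the 6 tested rose, among them Col1a1, Acta2 and Pdgfrb, beside 21.7% of all genes tested. Lum was at 0 in Vcam1ctrl, and replicate 3 of Vcam1KO1 held 147 of that clone's 169 counts. In Vcam1KO1 cells 4 rose and 1 fell (29.9% and 30.0% of all genes), and in Vcam1KO2 cells 5 rose (25.3%). Col1a2 was not called in Vcam1KO1 cells (edgeR adjusted p = 0.073). Dcn was not called with the clones combined. It fell from a mean of 74.6 to 4.34 CPM in Vcam1KO1 cells (log2 fold change -4.11, edgeR adjusted p = 0.00022) and stood at 92.0 CPM in Vcam1KO2 cells (0.30, edgeR adjusted p = 0.65). The 6 hepatocyte markers summed to 252 to 440 CPM in Vcam1ctrl, 1.57 to 3.02 CPM in Vcam1KO1 and 0.222 to 0.497 CPM in Vcam1KO2 libraries, with Hnf4a at 0 in both clones and Ttr at 0 in Vcam1KO2. Hnf4a and Ttr made up means of 226 and 79.3 CPM of the Vcam1ctrl sum. In Vcam1KO1 cells 4 of the 5 tested fell, beside 30.0% of all genes, and Apoa1 was not called (edgeR adjusted p = 0.067). Among those that fell, Alb overlapped the controls in Vcam1KO1 cells. The 8 biliary markers summed to 4530 to 5790, 10600 to 11100 and 7630 to 11100 CPM, of which Spp1 made up means of 2470, 10600 and 9640 CPM. With the clones combined, 4 of the 7 tested fell and 1 rose, beside 21.2% and 21.7% of all genes tested. The 6 haematopoietic markers summed to 4.08 to 10.4 CPM over all libraries, with Adgre1 and Cd3e at 0 in Vcam1ctrl and Cd3e in Vcam1KO1 cells, and the 5 endothelial markers to 0.668 to 2.01 CPM. With the clones combined, 1 of 3 haematopoietic markers tested rose and 1 fell, and 0 of 2 endothelial markers tested were called. Lyz2 had means of 0.114, 4.08 and 0.219 CPM in Vcam1ctrl, Vcam1KO1 and Vcam1KO2 cells, and Ptprc of 0.410, 0.0471 and 0.0471 CPM. The part of these cell type markers in the changes of Gja1, Gjb1 and Gjb2 was not tested.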

How the data were processed

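Messenger RNA of Vcam1ctrl, Vcam1KO1 and Vcam1KO2 PPTR cells was measured in 3 stranded paired-end libraries each. The authors quantified reads with kallisto 0.46.1 on mm10 (GRCm38) transcripts, and the deposited table holds estimated counts per gene symbol, without normalization. How transcripts were summed to genes is not given in the sources used here. All values were whole numbers and 0 columns were left out.

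Counts were scaled with TMM, filtered with filterByExpr (55276 to 17672 genes) and tested with edgeR 4.0.16 (R 4.3.3), using a fit with 2 groups for the combined clones and with 3 groups for each clone and between the clones. The Benjamini-Hochberg adjusted threshold was 0.05. A gene with 0 counts in a group is given a bound at 3 counts over the group. Intervals of ratios of summed counts are exact at 95%. Intervals of edgeR log2 fold changes are approximate 95% intervals from the t distribution. Their standard errors were derived from the log2 fold change and the F statistic of the quasi-likelihood test. Depth was high, so the spread between 3 libraries sets the precision, except for genes with a few counts.

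Replicate numbers follow the order of the deposited samples. The 6 genes and the gene lists were chosen with earlier results of these data known. Genes named are the 6, other tested connexins and pannexins, the 3 genes most like each, and from each list up to 3 that rose and 3 that fell most in the combined comparison among genes past the threshold with a mean of at least 5 CPM. Some genes of this rule, and the shares of single connexins in the sum of the family, are not reported here. Promoter windows, from RefSeq on GRCm38.p6, were found for 5 of the 6 genes and for 13 of 23 family genes. Positions are from GENCODE vM21, another release than the vM24 used for counting.

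Alternatives were limma-voom 3.58.1, DESeq2 1.42.0, upper-quartile, relative log expression and total-count scaling, no filter, a mean of at least 1 CPM, leaving out each library, fits on 6 libraries, the average of the clones' contrasts, and combined exon length. Figures were drawn with python 3.11.15 and matplotlib 3.10.9.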

Additional observations from a re-analysis of the deposited data

Results flagged for a closer look

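The level differed between the clones for 5 of the 6 genes, by the test of Vcam1KO1 against Vcam1KO2 with edgeR's adjusted p, beside 38.7% of all genes tested. The log2 difference of Vcam1KO1 from Vcam1KO2 was -1.26 for Gja1, -2.60 for Gjb5 and 2.87 for Gjc1, with adjusted p of 0.00031, 0.0088 and 0.00032. For Panx1 it was -0.59 (adjusted p = 0.024) and for Gjb2 5.95 (adjusted p = 0.044), where the Gjb2 estimate rests on 0 counts in Vcam1KO2 cells. The calls for Panx1 and Gjb2 were lost when single libraries were left out, and that for Panx1 with limma-voom as well. Both clones share the control libraries, so this is the difference between the clones themselves.

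Replicate 3 of Vcam1KO1 stood apart from the other 5 clone libraries for Gjb2, at 0.271 CPM, with a gap of 0.890 of the whole range against a critical value of 0.625. Chance flags about 1 in 20 groups drawn from 1 normal population, and 6 genes were looked at. The libraries here are of 2 clones, with 0 counts of Gjb2 in every Vcam1KO2 library, so that rate need not hold.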

How the results depend on the processing

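Of 402 values of the 6 genes under alternatives, 388 kept their direction and side of the threshold, 14 kept the direction only and 0 reversed. Leaving out certain single libraries ended the combined call for Gja1 and Gjb5, and the clone difference for Gjb2 and Panx1. Over every library left out in turn, calls kept included, the log2 fold change was 1.27 to 1.64 for Gja1 and -3.58 to -2.67 for Gjb5. The clone difference was likewise 4.03 to 6.46 for Gjb2 and -0.70 to -0.51 for Panx1. With limma-voom the Panx1 clone difference was -0.58 (adjusted p = 0.056) and Gjb2 in Vcam1KO1 moved from -4.73 to -5.38. Fitted combined values of Gjb2 (-5.66) and Gjc1 (7.50) were -6.85 and 6.43 with limma-voom and -7.71 and 6.87 as the average of the clones, and Gjb2 moved to -7.76 without replicate 3 of Vcam1KO1, and the cause was not tested. Called counts over all genes stayed within 1.5 times of the reported ones in 68 of 68 cases. Gjb2 was filtered out at a mean of 1 CPM, and Gjb1 and Gjb2 in the fit of the clones alone, so these gave no value. No paired analysis was possible because the labels give no replicate numbers. With 17 or fewer counts of Gjb2 per clone library, and 2 of Gjc1 over the controls, depth limits those values.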
